A study of Mus musculus with 20 samples.

Results

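The peaks described here are the m6A peaks that the authors' annotation placed in the first exon of a transcript with at least 2 exons and outside its untranslated regions (UTRs). They were picked by that annotation alone, without any measured value, and peaks with the same coordinates were kept once. They number 905 of the 25992 peaks per the authors' deposited tables, 477 of 12542 (3.8%) in invariant natural killer T (iNKT) cells and 428 of 13450 (3.18%) in CD4 and CD8 double-positive (DP) thymocytes. The iNKT peaks carry 407 gene names and the DP peaks 346. The rule reads only the position, so the size and direction of each difference between genotypes were free to vary.

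N6-methyladenosine (m6A) is written onto messenger RNA while it is being made, by a complex whose catalytic subunit is Mettl3 and whose partners Mettl14, Wtap, Virma, Zc3h13, Cbll1 and Rbm15 guide or hold it. The mark is known to gather in long internal exons and around the stop codon, in the short consensus whose most common form is GGAC, and readers of the YTHDF and YTHDC families bind it and alter splicing, export, translation or decay of the RNA. First exons hold the transcript's start. Antibodies to m6A also recover the related cap-adjacent base m6Am, which another enzyme writes, so enrichment close to a transcript's start can hold both.

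Mettl3-deleted cells came from Mettl3fl/flCD4-cre mice, in which floxed Mettl3 is cut by a Cre recombinase expressed under Cd4 control, and WT cells from wild-type mice of the same C57BL/6 background, all 6 to 8 weeks old. The labels do not give the WT mice a floxed allele or the Cre. For each genotype, iNKT cells gave 3 immunoprecipitated and 3 input libraries, and DP cells gave 2 of each. The iNKT gate took thymocytes that bound the CD1d tetramer and were TCRβ+, and the DP gate took CD4+CD8+ cells that did not bind it; both took 7AAD- cells. RNA was polyadenylated and cut to pieces of about 150 nt before immunoprecipitation. Whether replicates were separate mice is not stated, and the labels name a standard and a low-input protocol without tying either to a cell type, so protocol and cell type cannot be told apart. The authors' deposited tables hold 1 value per peak and no value per library, so neither depth nor the spread between replicates is known, and every FDR (false discovery rate) below is the authors' own. Peaks with an FDR of the difference between genotypes of 0.05 or less passed. The tables do not explain which way the signs run. Negative is taken as likely lower in Mettl3-deleted cells, because the authors' deposited gene lists hold 5339 of the 5343 iNKT genes and 4336 of the 4337 DP genes that have a negative peak, and none of the 1326 iNKT and 2237 DP genes whose peaks are all positive. "Lower" and "higher" are used for passing peaks in that likely direction.

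Mettl3 itself had 0 peaks, so the deletion could not be checked. Of the 10 iNKT cell markers looked for (Zbtb16, Klrb1c and others), 9 had a peak of any position in the iNKT table and 4 in the DP table. Of 10 DP markers (Rag1, Cd8a and others), 4 had a peak in the iNKT table and 6 in the DP table. B cell markers had a peak for 2 of 4 in the iNKT table and 1 of 4 in the DP table, myeloid markers for 0 of 4 in the iNKT table and 2 of 4 in the DP table, erythroid markers for 1 of 4 in each, and thymic epithelium markers for 0 of 5 in each. Presence of a peak needs both the RNA and the mark, so these are not expression levels, and the part of other cell types in the results was not tested.

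Not all of these peaks began near the start of a gene. The transcript's gene had a RefSeq start (GRCm38.p6, which is mm10) on the peak's strand for 266 iNKT and 268 DP peaks. Of these, 130 iNKT and 131 DP peaks (48.9% in each table) began within 1000 nt of it. Further downstream began 131 iNKT and 130 DP peaks, and further upstream 5 iNKT and 7 DP peaks. The median distance was 941 nt for the iNKT peaks and 839 nt for the DP peaks. The distance is that of the peak's 5′ end and not of the exon. A peak further downstream can lie in a long first exon, or in that of a shorter transcript that starts inside the gene. These cases were not told apart. The Smg6 peak, for example, lay 233793 nt downstream of the RefSeq start. Transcripts had a median of 4 exons in both tables, with 144 iNKT and 111 DP peaks on transcripts of 2 exons, up to Cit with 39 in the iNKT table and Mycbp2 with 83 in the DP table. The annotated gene was protein coding in 336 iNKT and 326 DP peaks and a long non-coding RNA (lncRNA) in 36 iNKT and 21 DP peaks, and no RefSeq gene was given for 102 iNKT and 80 DP peaks. The exonic length had a median of 151 nt in iNKT cells (quartiles 91 and 211) and 260 nt in DP cells (quartiles 150 and 420). Peaks made of 2 or more blocks span a splice junction, so part of such a peak can lie outside the first exon. They numbered 97 in iNKT cells and 145 in DP cells.

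Bases could be read only where a peak reached into RefSeq's promoter windows, 250 bases before to 50 after each gene's start. For 35 iNKT and 15 DP peaks at least 30 bases were readable. The sequences below come from RefSeq (GRCm38.p6), are written 5′ to 3′ on the peak's own strand, and show GGAC or GGACT in capitals. The first pair are the only passing peaks with readable bases, and they lie in windows of neighbouring genes, Gm15522 and Gm35977. The other five are the iNKT peaks that began exactly at a RefSeq gene start, shown from that base on.
Nop14, chr5:34650487-34650516, minus strand: tgagagccatgaGGACTcagaagagagtga
Cdc37, chr9:21149802-21149831, minus strand: catcgaggtgtcGGACgatgaGGACgagac
Hes6, chr1:91414009-91414038, minus strand: agggatgtgtgagaccaccgcaaagaggat
Dubr, chr16:50732744-50732773, minus strand: GGACcggcaccgcgcgtgcgtagagctgtc
2010016I18Rik, chr3:106485884-106485913, minus strand: aattccagtgcttgcagaccatgtggtgag
Lncpint, chr6:31218445-31218474, minus strand: atgatGGACatgatataatgaaacaacatt
2900076A07Rik, chr7:81523550-81523579, plus strand: ctcattttccaccggaaggagggagaaatt

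Of the readable iNKT stretches, 20 of 35 (57.1%) held GGAC on the transcribed strand, and 11 of 15 DP stretches (73.3%) did. Stretches of the same lengths taken from the 3′ end of all 32851 RefSeq windows held it in 27.9% (iNKT lengths) and 34.6% (DP lengths) on average. GGACT, which contains GGAC, was present in 6 of 35 iNKT stretches (17.1%), against 9.02% of all windows, and in 6 of 15 DP stretches (40.0%), against 11.7%. A match is a run of letters and not a methylated base, and the readable stretches are a small selection that lies near annotated starts. Some stretches share bases and were counted separately: those of Dnaaf2 in each table, and those of Tug1 and Lncpint in iNKT cells. The Nop14 stretch belongs to a peak that was lower in iNKT cells (log2 fold change -4.96 per the authors' deposited table), and the Cdc37 stretch to a peak that was lower in DP cells (-0.37). Of the peaks that began at a gene start, those of Dubr, 2010016I18Rik, Lncpint and 2900076A07Rik are on lncRNAs and that of Hes6 is on the gene of a basic helix-loop-helix protein. None of these passed, with log2 fold changes of -2.0 for Dubr, -1.16 for 2010016I18Rik, 2.51 for Lncpint, 0.00 for 2900076A07Rik and -1.0 for Hes6 per the authors' deposited table for iNKT cells.

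In iNKT cells, 66 of the 477 first-exon peaks were lower in Mettl3-deleted cells and 24 were higher, per the authors' deposited table. That is 13.8% lower, where 19.8% of all iNKT peaks were lower, and 5.03% higher, where 5.84% of all iNKT peaks were higher. The deepest fall was on Trim44, a tripartite-motif protein linked to removal of ubiquitin, and the largest rise on Rps6, a protein of the small ribosomal subunit. The median log2 fold change of first-exon peaks was -0.68 (quartiles -2.0 and 0.42) per the authors' deposited table, beside -0.98 for all iNKT peaks, and 63.3% were negative, beside 68.6%. In DP cells, 2 first-exon peaks were lower (0.467% of 428, beside 0.743% of all DP peaks) and 2 were higher (0.467%, beside 0.483%), with a median of -0.02 beside 0.00, per the authors' deposited table. The DP shares lie near those of all DP peaks and say nothing particular of first exons.

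**Figure D1:**
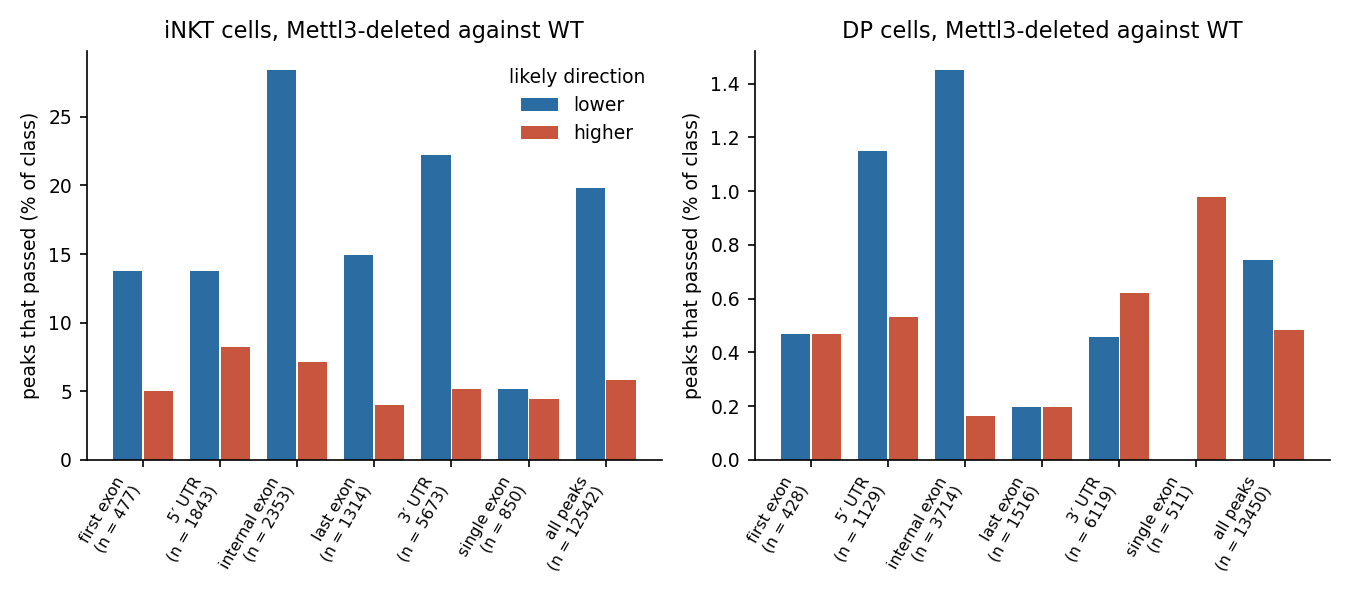
Share of peaks that passed at a differential FDR of 0.05, in percent of each position class, for iNKT cells (left) and DP cells (right), with blue bars for likely lower and red bars for likely higher in Mettl3-deleted cells; the vertical scales differ. In iNKT cells the first-exon class stands at 13.8% lower, level with the 5′ UTR and below internal exons, and in DP cells at 0.467% in each direction.

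Among the position classes of the iNKT table, the lower share of first-exon peaks was equal to that of 5′ UTR peaks (13.8%) and close to that of last-exon peaks outside the UTR (14.9%). It stood below that of 3′ UTR peaks (22.2%) and internal exons (28.4%) and above that of single-exon transcripts (5.18%) per the authors' deposited table. The rule asks for at least 2 exons. Just inside it, the 144 iNKT peaks on transcripts of 2 exons had 15 lower, 3 higher and a median log2 fold change of -0.80, and just outside it the 850 peaks on single-exon transcripts had 44 lower, 38 higher and a median of -0.85, per the authors' deposited table. In the DP table the 111 peaks inside had 0 lower and 2 higher, and the 511 outside had 0 lower and 5 higher.

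First-exon peaks were weaker than iNKT peaks in general. The median log10 p-value of the peak itself was -10.6 for first-exon peaks and -18.2 for all iNKT peaks per the authors' deposited table. Single-exon transcripts had a median of -7.31 with 5.18% lower, last-exon peaks -12.4 with 14.9%, and 5′ UTR peaks -17.0 with 13.8%. Peaks of the 3′ UTR stood at -22.5 with 22.2%, and internal exons at -26.2 with 28.4%. Apart from the 5′ UTR, the lower share of these classes rose with the median strength. The part of peak strength in the shares was not tested. When all iNKT peaks were cut into 4 equal groups by that p-value, only 86 first-exon peaks fell into group 1, the strongest, and 173 (36.3%) into group 4, the weakest. Within group 1, 48 of the 86 (55.8%) were lower, beside 62.8% of all iNKT peaks there. In group 2 the share was 14.8%, beside 14.3%, in group 3 it was 3.85%, beside 2.17%, and in group 4 it was 0 of 173, beside 0.159%. Within these groups, the shares of first-exon peaks lay above 5′ UTR peaks (48.3%, 9.24% and 1.52% in groups 1, 2 and 3) and below internal exons in groups 1 and 2 (71.7% and 22.4%). They lay close to last-exon peaks (57.4%, 15.1% and 3.65%), and 3′ UTR peaks stood at 65.1%, 12.6% and 1.74%. Peak p-values still varied widely within group 1, where the median log10 over all iNKT peaks was -316.5 and the Trim44 peak reached -19300, per the authors' deposited table. Higher first-exon peaks followed no such slope, with 4 of 86 (4.65%), 4 of 88 (4.55%), 8 of 130 (6.15%) and 8 of 173 (4.62%) from group 1 to group 4. Of all iNKT peaks, 4.02%, 6.54%, 7.78% and 5.04% were higher in these groups. Read depth in each exon is not known, and its part in these shares was not tested.

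**Figure D2:**
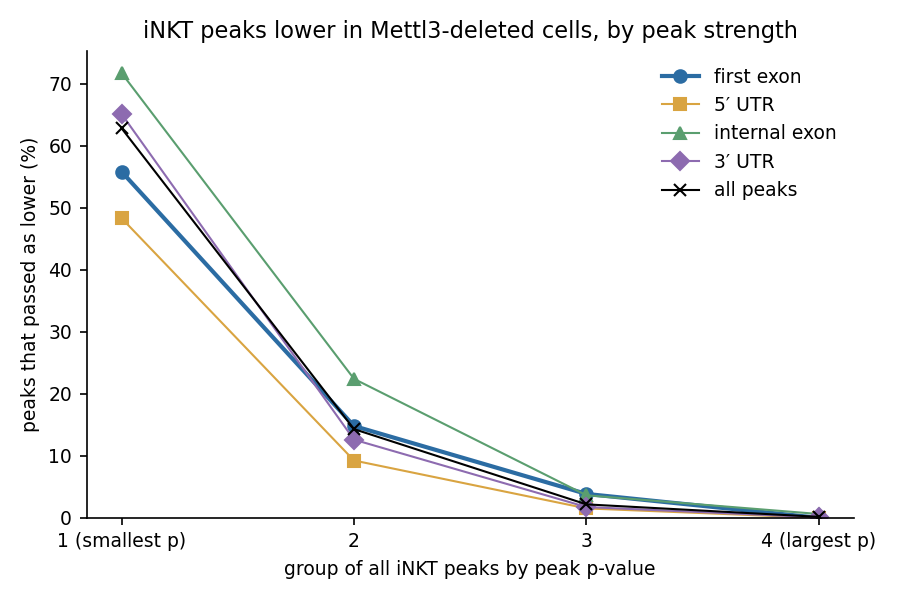
Percent of iNKT peaks that passed as likely lower in Mettl3-deleted cells (vertical axis) in 4 equal groups of all iNKT peaks ordered by the peak's own p-value (horizontal axis, strongest at left), with 1 line per position class. First-exon peaks fall from 55.8% to 0 and stay close to all peaks, which fall from 62.8% to 0.159%.

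The lower iNKT peaks were long and strong. Their median length was 270 nt and their median log10 peak p -312 per the authors' deposited table, against 135.5 nt and -10.7 for the higher peaks and 150 nt and -8.32 for those that did not pass. Of 51 iNKT first-exon peaks over 300 nt, 26 were lower and 1 was higher, whereas of 121 peaks up to 100 nt, 5 were lower and 9 higher. All iNKT peaks split the same way, with a median of 271 nt for lower and 179 nt for higher peaks. A change of 2-fold or more was seen in 64 of the 66 lower peaks and in all 24 higher ones. Of the 97 iNKT first-exon peaks in 2 or more blocks, 25 (25.8%) were lower and 7 (7.22%) higher. Of the 380 in 1 block, 41 (10.8%) were lower and 17 (4.47%) higher.

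**Figure D3:**
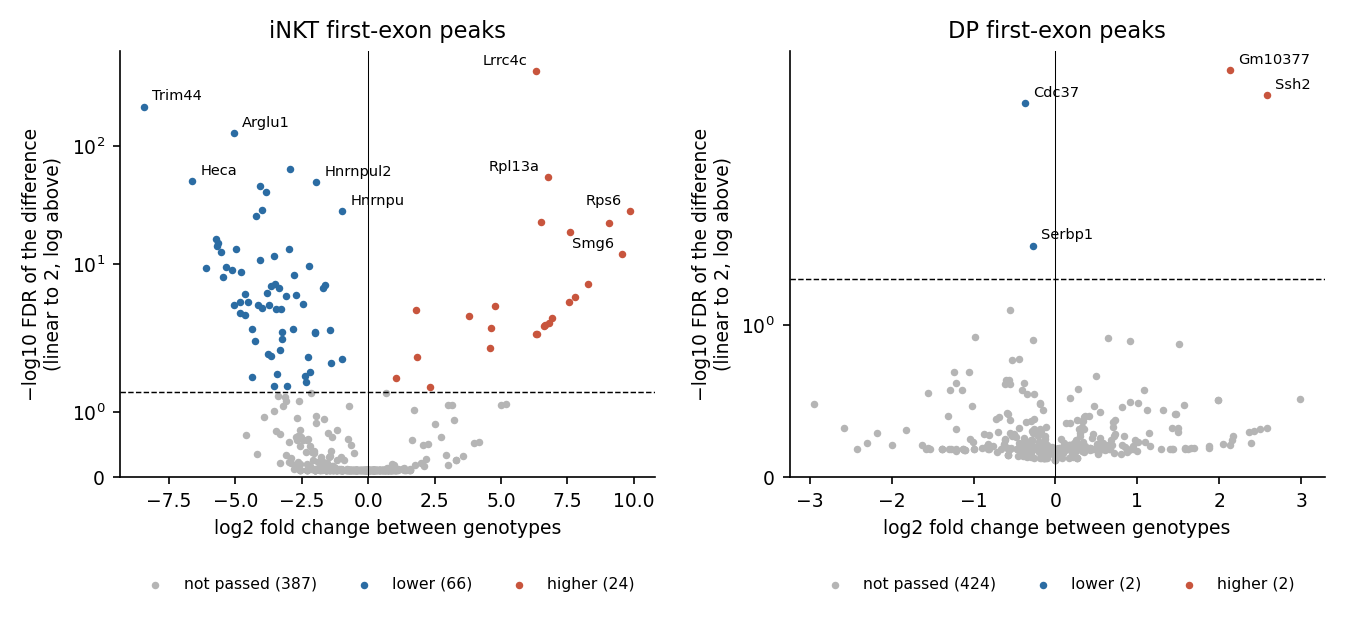
Every first-exon peak of iNKT cells (left, 477) and DP cells (right, 428), with the authors' log2 fold change between genotypes on the horizontal axis and minus log10 of the differential FDR on the vertical axis, which is linear to 2 and logarithmic above; the dashed line is an FDR of 0.05 and the scales differ. The 66 lower iNKT peaks spread from -0.98 to -8.44 and the 24 higher ones from 1.03 to 9.87, while 424 of the 428 DP peaks lie under the line.

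Cbll1 and Rbm15, genes of the m6A writer complex, had lower iNKT peaks that the annotation placed in a first exon. Cbll1, also called Hakai, is a RING finger protein of the writer complex, and its peaks at chr12:31487339-31487889 and chr12:31487340-31487908, on opposite strands, had log2 fold changes of -5.05 (FDR 3.4e-05) and -5.47 (FDR 1.8e-08) per the authors' deposited table. Whether the libraries kept the strand is not stated, so the pair may hold the same reads. No RefSeq gene was given for the transcript of these Cbll1 peaks. The DP peaks over the same place were annotated to the 3′ UTR and did not pass, at -0.115 and -0.35 per the authors' deposited table. Rbm15, the RNA-binding adaptor that brings the writer complex to its targets, had a lower peak at -4.64 (FDR 2.1e-04) and another that did not pass at -1.85 (FDR 0.71) per the authors' deposited table. Both were on the list of m6A writers, readers and erasers, of which 17 of 25 genes had any iNKT peak and 2 had first-exon peaks. Of those 4 peaks 3 were lower, where 19.8% of all iNKT peaks were, and 2 of the 3 are the Cbll1 pair at 1 place.

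Splicing factors and other RNA-binding proteins gave 9 first-exon peaks in 8 of 65 listed genes, of which 4 were lower and 1 higher. Among all iNKT peaks 19.8% were lower and 5.84% higher. Hnrnpu, an abundant nuclear RNA- and chromatin-binding protein, had the smallest fall of any lower peak at -0.98 (FDR 1.3e-28) per the authors' deposited table. Sf3b2, a subunit of the branch-site recognition complex of the spliceosome, was at -4.24 (FDR 2.5e-26), and Acin1, an exon junction and apoptosis protein, at -3.45 (FDR 0.026) per the authors' deposited table. Rbm15 is the other lower one and is on both lists. Srsf11, a serine- and arginine-rich splicing factor, was higher at 6.52 (FDR 1.6e-23) per the authors' deposited table. Srsf2 was at -1.72 (FDR 0.59), Sf3b4 at -2.58 (FDR 0.76) and Rbm5 at -1.0 (FDR 0.76) per the authors' deposited table, and none of them passed. Outside the list, Arglu1, which modulates splicing, was at -5.06 (FDR 1.0e-128) and Hnrnpul2, a relative of Hnrnpu, at -1.95 (FDR 5.0e-50) per the authors' deposited table. Nop14, a factor of small ribosomal subunit assembly, was at -4.96 (FDR 4.0e-14), and Zfp622, a zinc finger protein of large subunit maturation, at -2.93 (FDR 2.0e-64) per the authors' deposited table.

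Chromatin regulators had 7 first-exon peaks in 7 of 66 listed genes in iNKT cells, and 2 were lower, where 19.8% of all iNKT peaks were. Bptf, the large subunit of the NURF remodelling complex, was at -1.64 (FDR 2.1e-07), and Arid1b, a DNA-binding subunit of BAF complexes, at -3.56 (FDR 0.04) per the authors' deposited table. Smarcb1 at -0.66, Chd3 at -0.68 and Kmt2c at -0.45 did not pass, with FDRs of 0.76 each per the authors' deposited table. Of the lymphocyte transcription factors, 3 of 62 had a first-exon peak. Patz1, a zinc finger repressor known for its role at Cd8 genes, was lower at -3.26 (FDR 0.005), and Ikzf1, the founding Ikaros factor of lymphocyte development, was at -3.39 with an FDR of 0.056, just outside the threshold, per the authors' deposited table. Runx1, needed for thymocyte development, was higher at 7.58 (FDR 1.6e-19) per the authors' deposited table, with a peak of 150 nt and a fold enrichment over input of 3.15. No gene of the list of immediate early and AP-1 genes, or of actin, tubulin and motor genes, had a first-exon peak in either table. A peak of any position was held in iNKT cells by 27 of 30 and 33 of 40 of these genes. In DP cells it was 24 of 30 and 27 of 40. First-exon peaks made up 3.8% of all iNKT and 3.18% of all DP peaks.

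Trim44 had the deepest fall at -8.44 (FDR 1.0e-216, chr2:102400097-102400515) with an enrichment of 27.8-fold over input per the authors' deposited table, and it began 385 nt downstream of the gene start. Heca, the relative of Drosophila headcase, was at -6.63 (FDR 3.2e-51), and the uncharacterised gene 2510039O18Rik at -6.09 (FDR 7.1e-10) and -3.73 (FDR 3.0e-05), per the authors' deposited table. Snapc3, a subunit of the complex that activates small nuclear RNA genes, had peaks at -5.74 (FDR 6.3e-17) and -5.67 (FDR 7.9e-16) per the authors' deposited table, which names them Psip1 and sets them on opposite strands of 1 place where both genes overlap. Cfdp1 was at -5.54 (FDR 2.0e-13) and Tnrc18 at -5.36 (FDR 3.5e-10) per the authors' deposited table. Enrichment over input was 92.2-fold for Tnrc18, but only 1.44-fold for Cfdp1 and 1.39-fold and 1.54-fold for the Snapc3 peaks, per the authors' deposited table. A lower peak named Stard3nl by the authors lies in the T cell receptor gamma locus (Tcrg, Trgc2), at -2.46 (FDR 2.8e-05) and with an enrichment of 1.68-fold per the authors' deposited table.

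Of the genes of the PI3K, mTOR and FoxO list, 2 of 34 had first-exon peaks. Irs2, the insulin receptor substrate that recruits PI3K, held 4 of these peaks in iNKT cells, which the authors' deposited table names 9530052E02Rik. They did not move together: 2 were lower at -5.12 (FDR 1.5e-09, enrichment 117-fold) and -2.18 (FDR 0.025), 1 was higher at 1.83 (FDR 0.015, enrichment 1.69-fold), and 1 did not pass at -0.18 per the authors' deposited table. Both Irs1 peaks did not pass, at -2.32 and -1.81 (FDR 0.76 each) per the authors' deposited table. Ppp1r15b, which directs protein phosphatase 1 to the translation factor eIF2α, had 2 lower peaks at -5.70 (FDR 7.9e-15) and -2.38 (FDR 0.028) per the authors' deposited table. Wdr81, a protein of endosome and autophagy traffic, had lower peaks at -3.67 (FDR 0.014) and -2.22 (FDR 2.9e-10), and Zfp687, a zinc finger protein, at -4.38 (FDR 0.029) and -3.09 (FDR 4.3e-06) per the authors' deposited table. With Cbll1, Snapc3 and 2510039O18Rik these are all the genes with at least 2 passing first-exon peaks.

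The higher iNKT peaks were shorter and weaker than the lower ones. Their median length of 135.5 nt and median log10 peak p of -10.7 lay near those of all iNKT first-exon peaks (151 nt and -10.6), per the authors' deposited table. Ribosomal proteins and translation factors gave 3 first-exon peaks in 53 listed genes, of which 2 were higher and none lower. Over all iNKT peaks 5.84% were higher and 19.8% lower. Rps6 had the largest rise of all at 9.87 (FDR 7.9e-29) on a peak of 90 nt, and Rpl13a, a protein of the large subunit, was at 6.75 (FDR 1.6e-55) on a peak of 120 nt per the authors' deposited table. Eif4g2, a translation initiation factor, did not pass at 1.0 (FDR 0.76) per the authors' deposited table. Smg6, an endonuclease of nonsense-mediated decay, was at 9.56 (FDR 7.9e-13) and Edem1, a factor of endoplasmic reticulum degradation, at 9.08 (FDR 6.3e-23) per the authors' deposited table. Uap1l1 was at 8.27 (FDR 1.9e-07), Tcf7l1, a high-mobility-group transcription factor of the Wnt pathway, at 7.55 (FDR 1.7e-05), and Zfp810 at 6.91 (FDR 3.3e-04) per the authors' deposited table. A peak named Lrrc4c by the authors had the smallest FDR, with a log10 of -434, and a log2 fold change of 6.30, but it overlaps no RefSeq gene and its enrichment over input was 1.33-fold per the authors' deposited table. Likewise, the higher peak named Trim47 lies in Trim65 (2.34 per the authors' deposited table). Of the 24 higher peaks 3 had an enrichment under 2-fold, and of the 66 lower peaks 9 did.

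Long non-coding RNAs gave 36 iNKT first-exon peaks, of which 0 were lower and 1, on Xist, was higher by the authors' FDR. Of the 336 on protein-coding genes 60 were lower and 20 higher, where 19.8% of all iNKT peaks were lower and 5.84% higher. The lncRNA peaks had a median log10 peak p of -7.97, against -12.2 for those of protein-coding genes, and a median log2 fold change of -0.84, against -0.59, per the authors' deposited table. Xist, the RNA that silences the inactive X chromosome and a known m6A target, had a first-exon peak of 61 nt at 7.78 (FDR 5.1e-06) and another at -1.90 (FDR 0.59) per the authors' deposited table. Of its other peaks, which the authors' deposited table puts in last exons, 4 were lower, at -4.18 to -4.67, 1 was higher at 1.65 and the rest did not pass, and Tsix runs across the same place on the other strand. Of the other listed lncRNAs, Dleu2 was at 0.22, Snhg1 at -0.36 and Snhg14 at 0.52, each with an FDR of 0.76 per the authors' deposited table.

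Of the 130 peaks that began within 1000 nt of the RefSeq start, 27 (20.8%) were lower and 12 (9.23%) higher per the authors' deposited table. Of the 131 further downstream, 18 (13.7%) were lower and 6 (4.58%) higher, and of the 211 with no gene start on their strand, 21 (9.95%) were lower and 5 (2.37%) higher. The near-start peaks were also stronger, with a median log10 peak p of -13.5, against -9.55 further downstream and -9.98 with no start. In the DP table both lower peaks were among the 131 near-start peaks, whose median log2 fold change was -0.10, against 0.05 for the 130 further downstream.

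**Figure D4:**
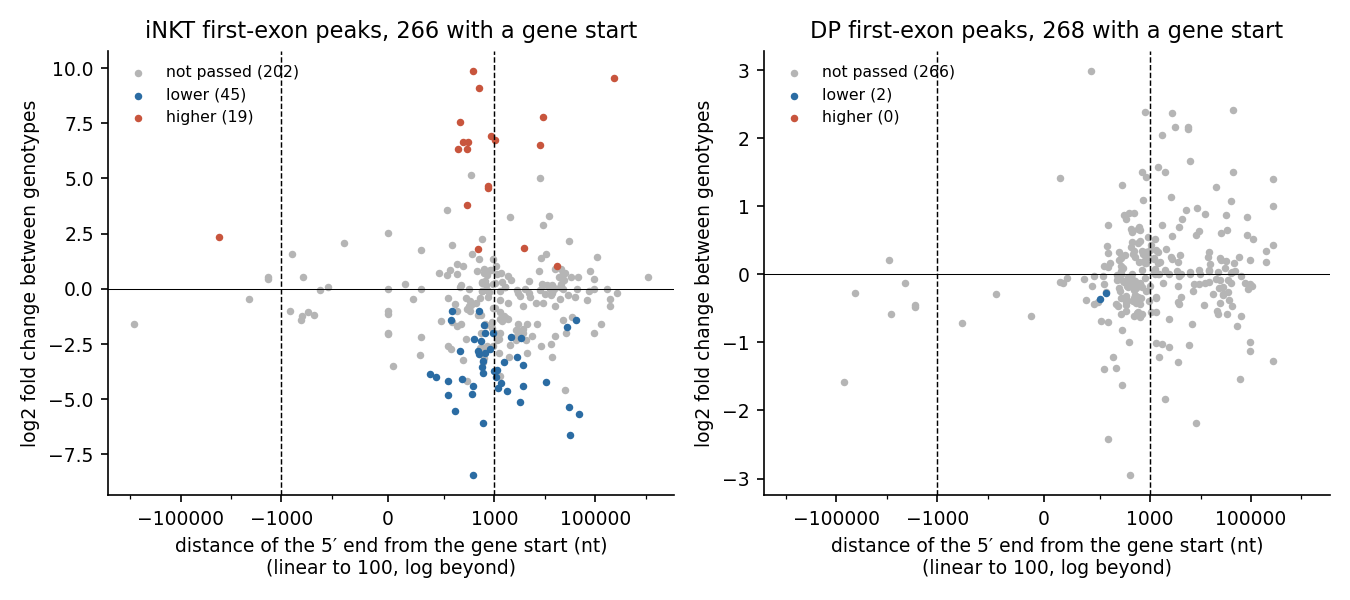
Distance of each first-exon peak's 5′ end from the RefSeq gene start on its strand (horizontal axis, nt, linear to 100 and logarithmic beyond) and the authors' log2 fold change between genotypes (vertical axis), for 266 iNKT peaks (left) and 268 DP peaks (right); dashed lines mark 1000 nt on either side and the vertical scales differ. Of the lower iNKT peaks shown, 27 lie between the lines.

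In DP cells the 4 passing peaks were small changes downward and larger ones upward. Cdc37, the co-chaperone that loads kinases onto Hsp90, had a peak of 628 nt at chr9:21142313-21149832 with a log2 fold change of -0.37 (FDR 2.7e-04) per the authors' deposited table. That peak has 4 blocks, so it also covers exons beyond the first. Serbp1, a ribosome-associated RNA-binding protein, was at -0.28 (FDR 0.03) on a peak of 451 nt per the authors' deposited table, and its 3′ UTR peaks did not pass. A peak on Ssh2, a phosphatase that activates the actin-severing protein cofilin, which also lies over the pseudogene Gm12346, was at 2.58 (FDR 1.5e-04), and a peak named Gm10377, which lies in the pseudogene Cdv3-ps, at 2.13 (FDR 1.9e-05) per the authors' deposited table. Reads from a processed pseudogene and its parent gene cannot always be told apart, so the gene of either peak is uncertain. The Ssh2 value is also one that recurs exactly among DP first-exon peaks, as the log2 of a whole number. Of 424 DP first-exon peaks that did not pass, 75 had a change of at least 2-fold.

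No first-exon peak of a listed gene passed in DP cells, where 1.23% of all peaks did. The T cell receptor list gave 6 first-exon peaks in Cd247, Cd8a and Cd3g, which encode chains of the receptor complex and its coreceptor, in DP cells and none in iNKT cells. Of its 41 genes, 33 had a peak of any position in DP cells and 28 in iNKT cells. First-exon peaks made up only 3.18% of all DP and 3.8% of all iNKT peaks, so few are to be found on any such list. The 4 Cd3g peaks were at -0.15, -0.14, 0.13 and 0.97, Cd8a was at 0.11 and Cd247 at -2.0 (FDR 0.61) per the authors' deposited table. Among chromatin regulators, 7 of 66 genes held 8 DP peaks with a median log2 fold change of 0.07 per the authors' deposited table, for example Bptf at -0.16 and Arid1b at 0.91. The chaperones Hsp90b1 (-0.41 and -1.06) and Dnajc7 (-0.19) did not pass either, per the authors' deposited table.

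The tables of the cell types share no library, so their first-exon peaks were set side by side. At least 1 exonic base on the same strand was shared by 116 iNKT peaks (24.3%) and 112 DP peaks (26.2%), which made 134 pairs with a median of 176.5 shared bases. Over these pairs the median log2 fold change was -1.42 in iNKT cells and 0.10 in DP cells per the authors' deposited tables, and both were negative in 36. In 39 pairs the iNKT peak was lower, in 2 it was higher, and in 1 pair (Ssh2) the DP peak passed, at 2.58 where the iNKT peak did not pass at -2.69, per the authors' deposited tables. In no pair did both pass. In the 39 pairs with a lower iNKT peak, the DP values ran from -1.29 to 2.16 with a median of 0.07, and 13 were negative. Heca was at -6.63 in iNKT cells and 0.20 in DP cells, Rbm15 at -4.64 in iNKT cells and 0.55 in DP cells, and Acin1 at -3.45 in iNKT cells and -1.29 in DP cells, per the authors' deposited tables. Across the pairs the values had a Pearson correlation of -0.002, given as a description over 134 pairs that share genes and in some cases a peak. Tests by the authors had 3 replicates a genotype in iNKT cells and 2 in DP cells, and the difference between the cell types was not tested.

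**Figure D5:**
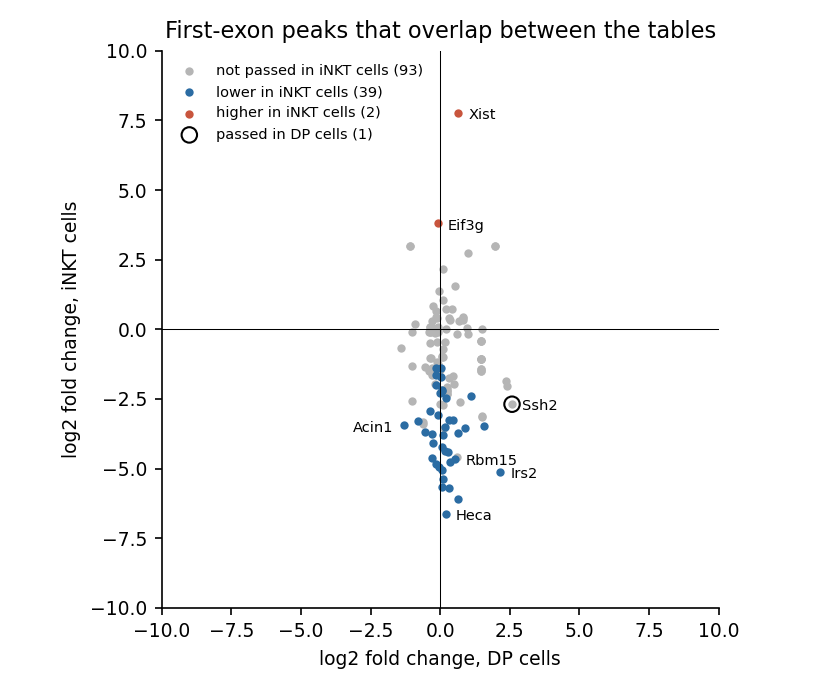
Log2 fold change between genotypes in iNKT cells (vertical axis) and DP cells (horizontal axis) for the 134 pairs of overlapping first-exon peaks, on equal scales, coloured by whether the iNKT peak was lower (39), higher (2) or did not pass (93), with a ring on the 1 pair whose DP peak passed. The pairs spread along the vertical axis with iNKT values down to -6.63, while the DP values of the lower iNKT peaks stay between -1.29 and 2.16.

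Places lower in iNKT cells usually had a peak in DP cells too. Of the 66 lower iNKT first-exon peaks, 57 (86.4%) overlapped a DP peak of any position class, against 4 of the 24 higher ones (16.7%) and 98 of the 387 that did not pass (25.3%). All iNKT peaks showed a similar split, with 82.6% of lower, 19.2% of higher and 33.9% of the other peaks overlapping one. The 57 had a median log2 fold change of -3.73 in iNKT cells and 0.06 at the overlapping DP peak per the authors' deposited tables. Of these 57 DP peaks 1 passed, where 1.23% of all DP peaks did: it lay on Hnrnpu, at -0.98 in iNKT cells and -0.22 (FDR 5.5e-04) in DP cells per the authors' deposited tables. The higher iNKT peaks with a DP peak were those of Nap1l1, Lrrc4c, Eif3g and Xist, and the Xist peaks of the cell types shared only 1 base. The same place could fall into different classes between the tables: 25 iNKT first-exon peaks overlapped most with a DP peak annotated to the 5′ UTR, 12 with one in the 3′ UTR and 6 with one in an internal exon. The DP peak over the Trim44 peak, for example, was annotated to the 5′ UTR and had a log2 fold change of -0.01 (FDR 0.65), where the iNKT peak was at -8.44, per the authors' deposited tables.

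Within a gene, first-exon peaks did not always follow its other peaks. Only first-exon peaks whose RefSeq gene carries the same name as the authors give were used for this. Of the genes kept, 85 in iNKT cells had both a first-exon peak and a 3′ UTR peak, and the strongest of each were compared. The first-exon peak was lower in 18 of these genes and the 3′ UTR peak in 28, both were lower in 9, and the first-exon value was the more negative in 43. The medians were -0.79 for the first exons and -1.11 for the 3′ UTRs per the authors' deposited table, with a median difference of -0.07 (quartiles -1.73 and 2.53). Both were lower in, for example, Arglu1 (-5.06 and -1.86), Scrib (-3.55 and -2.47) and Fam32a (-3.86 and -4.10), per the authors' deposited table. In Ankrd17 the first-exon peak was lower at -4.78 and the 3′ UTR peak higher at 5.09, and in Nap1l1 (1.03 and -6.27) and Hnrnpdl (1.79 and -1.49) it was the other way round, per the authors' deposited table. The 3′ UTR peak of Trim44 did not pass, at 0.66 (FDR 0.76) per the authors' deposited table. Of the 54 iNKT genes kept that had a first-exon and a 5′ UTR peak, the first-exon peak was lower in 16, the 5′ UTR peak in 13 and both in 5. In the 112 DP genes kept that had a 3′ UTR peak, the medians were -0.02 for the first exons and 0.03 for the 3′ UTRs per the authors' deposited table.

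None of the 5 peaks with the largest enrichment over input passed, in either table. In iNKT cells Slc30a9 (249-fold), Glyr1 (229-fold), Abcc4 (204-fold) and Cnnm3 (138-fold) had log2 fold changes of -4.60 (FDR 0.22), -2.73 (FDR 0.24), -1.70 (FDR 0.75) and -1.51 (FDR 0.21) per the authors' deposited table. In DP cells 4930453N24Rik (44.3-fold), Peak1 (33.2-fold), Zfp831 (30.3-fold), Adal (27.4-fold) and Ccdc34 (26.9-fold) were at 0.08, -1.55, 1.58, 1.46 and 0.24 per the authors' deposited table. Adal is the authors' name for that peak, which lies over the RefSeq gene Lcmt2. Some values recurred exactly. In iNKT cells 81 first-exon peaks (17.0%, beside 12.1% of all peaks) had a log2 fold change equal, at 3 significant digits, to 0 or to the log2 of a whole number from 2 to 9 with either sign, such as -1 (13 peaks), -2 (13 peaks) or 0 (18 peaks), and none of the 81 passed. In DP cells 20 (4.67%, beside 3.09%) did, and 1 of the 20, the Ssh2 peak at 2.58, passed. The median log10 peak p of these peaks was -4.42 in iNKT cells and -3.57 in DP cells per the authors' deposited tables, so they were among the weakest.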

How the data were processed

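Per the labels, m6A immunoprecipitation and input libraries were made in 8 groups, 20 libraries in all. Reads were handled with STAR 2.6.0a, RSEM 1.3.0, HOMER 4.9.1, Trim Galore 0.6.5 and FastQC 0.11.5 on build mm10, per the submitters' processing notes. For the peak calling, no program and no statement on pooled replicates is given in the sources used here, beyond column names of the exomePeak kind. The authors' tables hold, per the file headers, a p-value for each peak and its fold enrichment, a linear ratio of immunoprecipitate to input. Per the file headers they also give the log2 fold change between genotypes, and logarithms to base 10 of the p and the FDR of each peak and of its difference, which the authors deposited and which are used here as scores. With no count per library analysed here, no model was refitted and the depth is unknown.

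From these tables, peaks with repeated coordinates were kept once (3 first-exon rows removed in iNKT cells and 2 in DP cells), positions were read from the annotation, and passing peaks were counted by sign at an FDR of 0.05. A peak carries the symbol of its transcript's RefSeq gene where one is given and the authors' name otherwise; they differed for 24 iNKT and 15 DP peaks. Peaks of both tables were paired where they shared 1 exonic base or more on 1 strand. Distances and bases come from RefSeq tables of GRCm38.p6, and 1685 overlapping windows on opposite strands agreed in all bases. No genome was used, so a motif search over whole peaks was not run.

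The text names, for each table, the passing peaks with the largest change (10 per sign) and the smallest FDR (5 per sign), the 5 with the largest enrichment, genes with at least 2 passing peaks, listed genes that passed, and up to 3 others per list; further examples were chosen after their values were seen. Some genes that the rule picks are not reported here. The members and the 15 gene lists were chosen with earlier results of these data known. Overlap and counting were tested on simulated data. Software was matplotlib 3.10.9, SciPy 1.17.1, pandas 2.3.3, numpy 2.4.6 and Python 3.11.15.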

Additional observations from a re-analysis of the deposited data

How the results depend on the processing

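Of 53 values recomputed under other settings, 42 stayed within 1.5 times the count, or within the interval of the median, given in the report, and 11 moved. That 0 reversed a passing result was fixed beforehand, because no setting can flip the sign of a passing peak's value. The DP median of -0.019 became 0.011 with a peak FDR of 0.01 and an enrichment of 2-fold, and was counted as staying within its interval. In iNKT cells the 66 lower peaks became 41 with peaks in 1 block only and 27 among those within 1000 nt of a gene start, where the 24 higher peaks became 12; both settings keep fewer peaks (380 and 130 of 477). The iNKT median log2 fold change of -0.68 became 0.292 once the median of all iNKT peaks was subtracted, which places it above the median of all iNKT peaks. In DP cells the 2 lower peaks became 1 at an FDR of 0.01, 0 with a change of at least 2-fold and 1 with peaks in 1 block only. The 2 higher DP peaks became 0 on transcripts of 3 or more exons, 0 on protein-coding RefSeq genes and 0 within 1000 nt of a gene start, where the DP median was -0.102. Overlap of at least 0.5 of the shorter peak left 104 of the 112 matched DP peaks. The settings by RefSeq gene type, by distance and without places that have peaks on both strands were chosen after seeing the data; the first replaces a planned restriction to RefSeq transcript names, which the annotation does not use. No paired analysis was possible because the tables hold no value per library, and for the same reason no replicate could be left out. The planned motif search over whole peaks was not run.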

Other observations

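Some genes held several first-exon peaks. In iNKT cells the most were 6, on Zfp831, a zinc finger gene, and under the authors' name Adal, where RefSeq has Lcmt2. One Zfp831 peak was lower at -3.48 (FDR 7.4e-05), and its other five did not pass, at -1.42, -0.49, -0.10, 0.19 and 1.73, per the authors' deposited table. None of the 6 peaks named Adal passed, at -0.41 to -1.51, and some lay over one another with the same value. The lncRNA Tug1 had 4 iNKT peaks, all negative and none passing, at -1.05 to -2.56 per the authors' deposited table. In DP cells no gene had more than 4, and the 4 Cd3g, 4 Celsr1, 4 Macf1 and 4 Mfhas1 peaks each held both signs. First-exon peaks that overlap another peak of any position class on their strand numbered 29 in iNKT cells and 30 in DP cells, and are not separate measurements.

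Places with a peak on both strands held 20 iNKT and 21 DP first-exon peaks. Of these, 6 were lower and 0 higher in iNKT cells (Cbll1, Snapc3, Wrnip1 and Iqsec1), and 0 passed in DP cells by the authors' FDR.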
